A study of Mus musculus with 32 samples.

Results

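The genes described here encode the intermediate filament proteins of astrocytes: Gfap, Vim, Nes and Synm. These 4 genes were taken by name from the 42524 genes of the count table, and each was found in 1 row of it (ENSMUSG00000020932, ENSMUSG00000026728, ENSMUSG00000004891 and ENSMUSG00000030554). Levels are given in CPM, the counts of a gene relative to the library size after edgeR's TMM scaling over all mice.

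RNA was sequenced from the spinal cord of 32 mice in 8 groups of 4. G93A mice carry a human SOD1 transgene with the G93A mutation and are a model of amyotrophic lateral sclerosis. They were compared with WT littermates, and the whole colony was on the C57BL/6J background. Mice of each genotype were left untreated or were given OKN-007, a nitrone compound, and groups were labelled 90 or 155 days, of which the study's text gives the earlier as a slightly later age. The groups are therefore WT untreated, WT OKN-007, G93A untreated and G93A OKN-007 at each time. The dose given to the sequenced mice was not named in the sources used here. The study's text describes harvests at its earlier age and at 155 days only in cohorts of its higher dose, given in drinking water. It states that only females were used at that dose and describes its mice as a whole as predominantly female. The human transgene, which a table of mouse genes does not list, is left aside. Bulk tissue was used, so more cells of a type and more RNA per cell cannot be told apart in any value below.

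Gfap and Vim are type III intermediate filament proteins that assemble together into the cytoskeleton of astrocytes. Nes and Synm are large proteins that do not build filaments by themselves and join those made by Vim, and Nes is best known from neural progenitors. Astrocytes that react to injury or neurodegeneration are classically recognised by raised Gfap, often with Vim and Nes. None of these genes marks astrocytes alone: Vim is also made by microglia, endothelial cells, fibroblasts and ependymal cells, and Nes by endothelial and mural cells.

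The sequences just before the start of each gene are shown because 3 of the 4 genes moved together while Synm did not. They are the 250 bases before the gene start in RefSeq on build GRCm38.p6, read 5′ to 3′ along the gene's own strand, and capitals mark a match to one of the motifs named after them.
Gfap, chr11:102897201-102897450, minus strand: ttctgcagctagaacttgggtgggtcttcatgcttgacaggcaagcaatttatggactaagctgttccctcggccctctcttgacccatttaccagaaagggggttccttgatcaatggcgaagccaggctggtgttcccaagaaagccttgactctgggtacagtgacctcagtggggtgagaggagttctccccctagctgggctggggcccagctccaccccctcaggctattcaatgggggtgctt
Vim, chr2:13574061-13574310, plus strand: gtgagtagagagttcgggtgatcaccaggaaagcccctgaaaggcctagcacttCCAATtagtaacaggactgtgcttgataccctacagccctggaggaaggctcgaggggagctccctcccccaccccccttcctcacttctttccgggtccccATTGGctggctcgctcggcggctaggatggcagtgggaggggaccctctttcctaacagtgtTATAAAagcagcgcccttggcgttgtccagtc
Nes, chr3:87970843-87971092, plus strand: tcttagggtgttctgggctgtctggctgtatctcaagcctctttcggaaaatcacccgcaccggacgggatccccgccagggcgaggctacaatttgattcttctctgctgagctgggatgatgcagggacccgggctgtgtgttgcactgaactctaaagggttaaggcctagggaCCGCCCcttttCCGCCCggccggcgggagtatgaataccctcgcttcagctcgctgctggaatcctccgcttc
Synm, chr7:67759743-67759992, minus strand: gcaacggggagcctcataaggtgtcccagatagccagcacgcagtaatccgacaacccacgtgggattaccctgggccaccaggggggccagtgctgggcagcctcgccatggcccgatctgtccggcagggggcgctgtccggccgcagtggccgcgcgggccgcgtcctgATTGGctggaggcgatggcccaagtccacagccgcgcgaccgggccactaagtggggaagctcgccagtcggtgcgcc

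Both strands were searched for the STAT motif TTCNNNGAA, the AP-1 motif TGANTCA, the palindromic NF-I motif, the CCAAT box, the GC box GGGCGG and the TATA box TATAAA. Vim held a TATA box 32 bases before its start and CCAAT boxes at 196 and 94 bases. Nes held GC boxes at 73 and 62 bases, and Synm a CCAAT box at 78 bases. None of the 6 motifs was matched in the Gfap window. Of 32851 promoter windows of this length, 12.4% held the TATA box, 33.8% the CCAAT box, 32.7% the GC box, 7.02% the STAT motif, 6.75% the AP-1 motif and 0.703% the NF-I motif. The windows differed in base composition, from 55.6% G and C in Gfap, 58.4% in Vim and 58.8% in Nes to 70.0% in Synm, where the median promoter had 52.4%. The matches are letters only and were not tied to any measured binding.

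The count totals of the mice ran from 19701722 to 30138257, so that 3 counts in the smallest library correspond to 0.152 CPM, and each of the 4 genes lay far above that in every mouse. This limit covers counting error only. One library stood apart: WT untreated mouse 3 at 90 days had a summed level of 1373 CPM for the 7 Schwann cell markers and 171 CPM for the 6 fibroblast and meningeal markers, where the other mice had 114 to 373 CPM and 39.0 to 79.8 CPM. For the 4 genes, the fold changes, group means and correlations with each other that use this mouse are also given without it. Leaving it out changed 1 call of the 4 genes, that of Vim between the times in WT mice. G93A untreated mouse 10 at 90 days, the smallest library, was the highest of the other mice on both lists (373 and 79.8 CPM). Mouse 10 was left out only when each mouse was left out in turn. Caudal Hox genes, which mark the level along the cord, had a mean score (mean of log2(CPM + 1)) between 0.376 and 3.14 over the mice. At 155 days the score was 2.01 to 3.14 in WT and 0.376 to 2.18 in G93A mice. Groups were compared with edgeR's quasi-likelihood test, two-sided, with Benjamini-Hochberg adjustment over all genes tested, and a gene is called changed at an adjusted p under 0.05. Fold changes are on the log2 scale with their standard error (SE). The labels do not say that the mice of a group came from separate litters, and they name no sequencing batch.

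At 155 days, Gfap, Vim and Nes rose in G93A spinal cord and Synm was not called. Vim rose most, 14.6-fold, ahead of Gfap at 5.28-fold and Nes at 3.65-fold in untreated mice. These 3 calls of 4 genes compare with 21.3% of the 18675 genes tested that were called higher, 18.2% called lower and 39.5% called in either direction.

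Gfap, the main filament protein of mature astrocytes, was at 2258, 2456, 1942 and 2127 CPM in the 4 untreated WT mice at 155 days. It was at 9548, 12835, 12902 and 9764 CPM in the 4 untreated G93A mice. Every G93A mouse was above every WT mouse, by a wide margin, as for 15.6% of genes tested. The log2 fold change was 2.40 (SE 0.11, 95% interval 2.17 to 2.63, adjusted p = 1.41e-11). Gfap took 0.173% to 0.248% of all counted reads in the 8 WT mice of this time and 0.997% to 1.30% in the 8 G93A mice. By counts it ranked between 22 and 39 among all genes in WT mice, and between 3 and 5 in G93A mice.

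Vim, the filament protein shared by immature and reactive astrocytes with many other cells, was at 117, 133, 98.9 and 137 CPM in untreated WT mice. The untreated G93A mice had 1213, 1922, 2766 and 1028 CPM. The groups were far apart, and the G93A mice spread more widely than the WT mice, with the highest mouse far above the group's lowest. The log2 fold change was 3.87 (SE 0.24, 95% interval 3.37 to 4.37, adjusted p = 4.19e-10). Vim ranked 121 by increase among the genes tested, at the 99.4 percentile of all fold changes. Its rank by counts moved from between 1479 and 2298 in WT mice to between 18 and 67 in G93A mice.

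Nes, the large partner protein known from progenitors, was at 50.2, 40.4, 36.9 and 90.7 CPM in untreated WT mice at 155 days. In untreated G93A mice it was at 158, 223, 234 and 160 CPM. The groups did not overlap, although the highest WT mouse stood well above the other WT mice. The log2 fold change was 1.87 (SE 0.24, 95% interval 1.36 to 2.37, adjusted p = 6.30e-06).

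Synm, the partner protein that links filaments to membrane complexes, was at 184, 118, 170 and 160 CPM in untreated WT mice. Untreated G93A mice had 127, 126, 202 and 129 CPM. Mouse 11 of the G93A group was the highest of all 32 mice while the other G93A mice were near the lowest WT mouse, so the groups overlapped. The log2 fold change was -0.06 (SE 0.13, 95% interval -0.34 to 0.22, adjusted p = 0.738), so that a rise of the size seen for Gfap, Vim or Nes lay outside the interval. Without mouse 11 of the G93A group the value was -0.25 with an adjusted p = 0.0666, and with the caudal Hox score in the model it was 0.09 with an adjusted p = 0.735. Synm overlaps Ttc23 (3577 counts over all mice) and Gm45102 (94 counts) on the other strand, and Gfap overlaps Gm26668. Synm itself had 1764 to 5388 counts in each single mouse. Whether the counting used the strand is not stated.

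**Figure D1:**
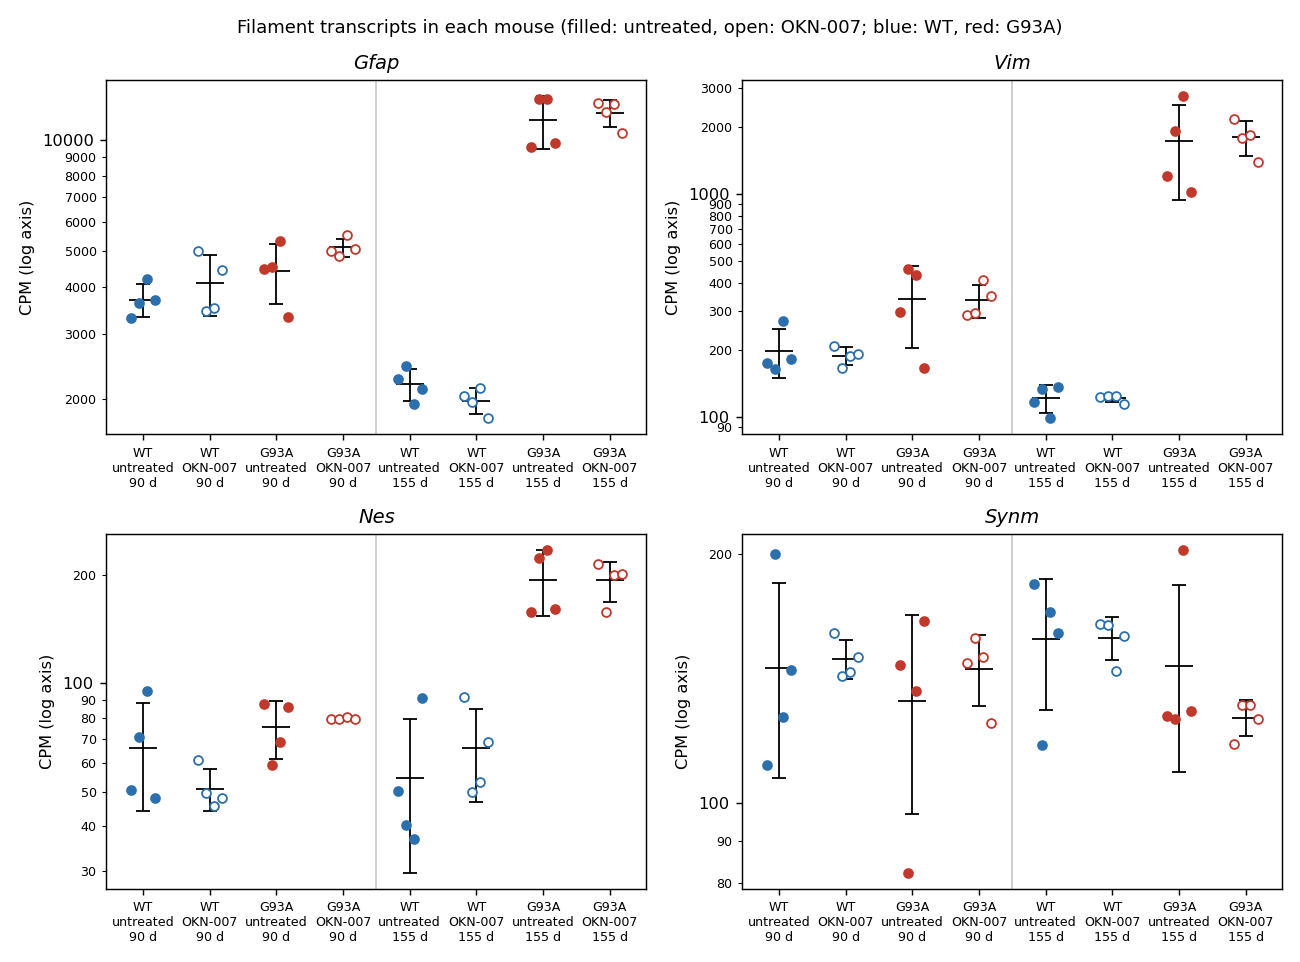
CPM of each gene in every mouse on log axes, in 8 groups with 90 days on the left and 155 days on the right of each panel. Blue is WT and red G93A, filled points are untreated and open points OKN-007 mice, and bars give the mean and SD of 4 mice. All 8 G93A mice at 155 days lie above every other mouse for Gfap, Vim and Nes, whereas Synm stays between 82.4 and 202 CPM throughout.

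The G93A and WT mice given OKN-007 are separate mice from those above and gave fold changes of the same direction for Gfap, Vim and Nes. Gfap was at 2031, 1966, 2144 and 1774 CPM in WT OKN-007 mice and at 12513, 11880, 12440 and 10418 CPM in G93A OKN-007 mice (log2 fold change 2.65, SE 0.11, adjusted p = 3.88e-12). Vim was at 123, 125, 125 and 114 CPM and at 2182, 1794, 1852 and 1397 CPM in these groups (3.97, SE 0.24, adjusted p = 2.50e-10). Nes was at 91.5, 50.0, 53.2 and 68.8 CPM and at 214, 157, 199 and 200 CPM (1.62, SE 0.24, adjusted p = 2.46e-05). No WT mouse reached a G93A mouse for any of these 3 genes, where 23.3% of genes tested were called higher and 20.3% had every G93A mouse above every WT mouse.

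Synm in the OKN-007 mice was lower in each G93A mouse than in each WT mouse, without passing the test. It was at 165, 164, 144 and 159 CPM in WT and at 118, 132, 131 and 126 CPM in G93A mice. No overlap in either direction held for 45.4% of all genes tested, and the log2 fold change was -0.25 (SE 0.13, adjusted p = 0.153). The call depended on the fit. With only the 8 OKN-007 mice in the model the value was -0.26 with an adjusted p = 0.0031, and with the caudal Hox score in the model it was -0.08 with an adjusted p = 0.798. The share of all genes called in the model of 8 mice was not recorded.

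The rises of Gfap, Vim and Nes at 155 days stayed near these values with the caudal Hox score in the model, at 2.38, 3.96 and 2.05 in untreated mice on the log2 scale. Their ranges over the other alternatives and over leaving out each mouse in turn stayed between 1.51 and 4.07 for the 3 genes in both treatments.

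**Figure D2:**
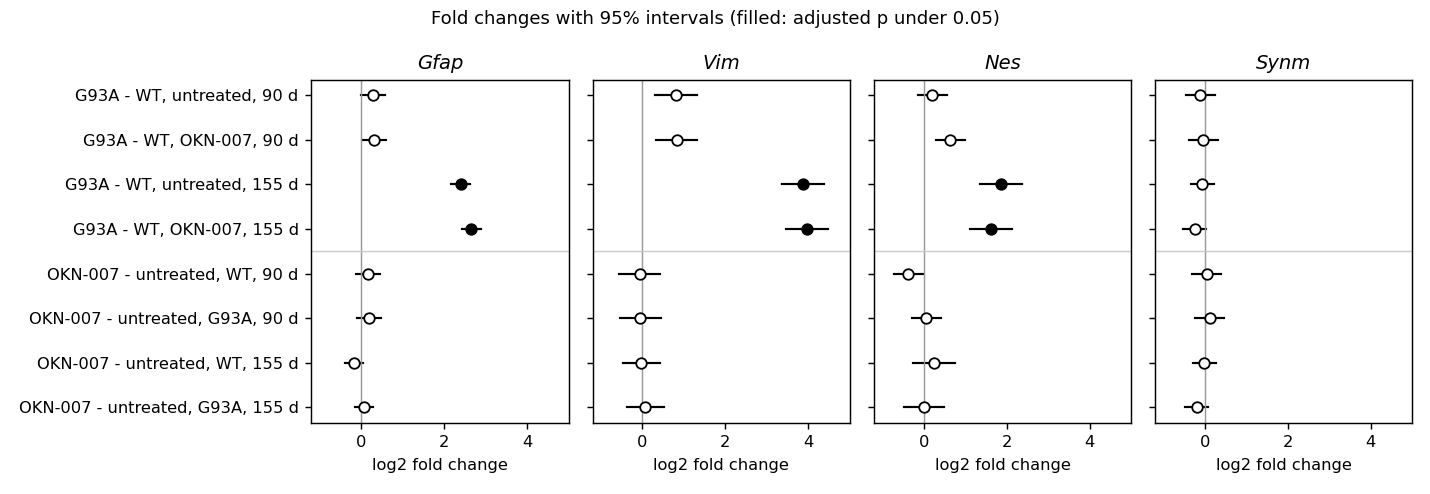
Log2 fold change of each gene with its 95% interval in 8 comparisons, G93A against WT above the grey line and OKN-007 against untreated below it. Filled points passed an adjusted p of 0.05, which holds for Gfap, Vim and Nes in both comparisons of G93A with WT at 155 days and for no comparison at 90 days or of OKN-007.

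The proportions of the filament transcripts differed between the genotypes. Scaled by the length of the gene's exons, Vim stood at 4.53% to 5.72% of the Gfap level in the 8 WT mice at 155 days and at 9.37% to 19.1% in the 8 G93A mice. Every G93A mouse was above every WT mouse. Nes, on the same scale, was at 1.08% to 2.96% of Gfap in WT and 0.871% to 1.26% in G93A mice, with overlapping ranges. Synm was at 2.55% to 4.78% of Gfap in WT and at 0.501% to 0.833% in G93A mice, again without overlap, although its own CPM was not called. Any gene that stays level falls as a share of Gfap when Gfap rises, so this fall restates the Gfap result. The shares are descriptions of the fold changes given above and not separate results. These shares are per kilobase of the union of annotated exons (4.218 kb for Gfap, 4.743 kb for Vim, 6.416 kb for Nes and 7.933 kb for Synm) and would shift if the cord used shorter forms.

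**Figure D3:**
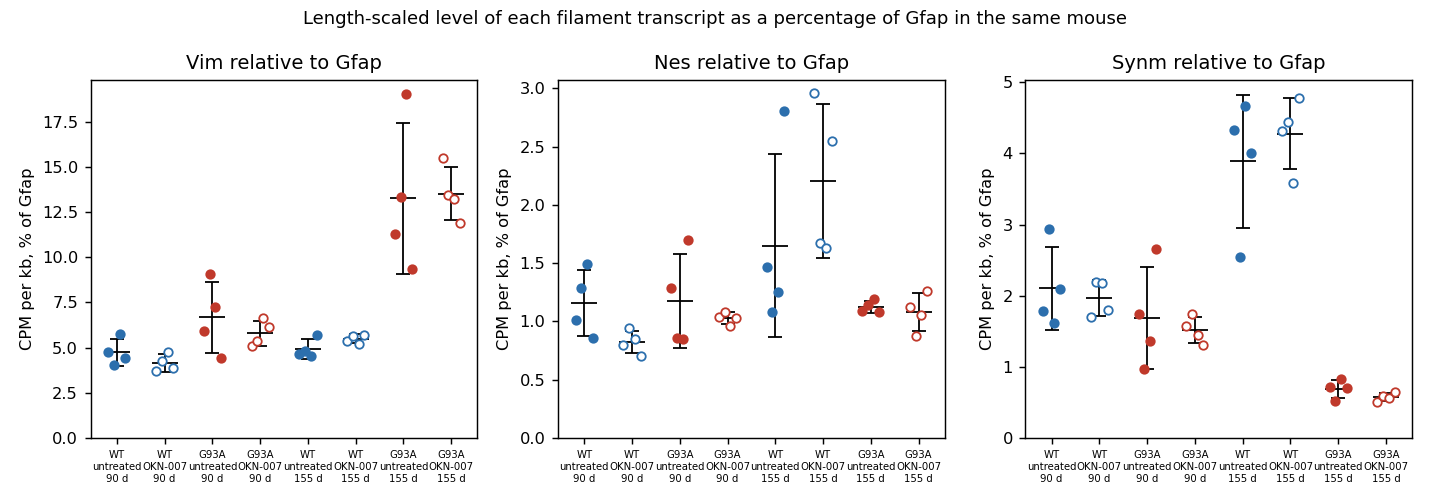
Vim, Nes and Synm per kilobase of exon as a percentage of Gfap per kilobase in the same mouse, by group, with the mean and SD of 4 mice. At 155 days the Vim share lies at 4.53% to 5.72% in WT and 9.37% to 19.1% in G93A mice, and the Synm share at 2.55% to 4.78% and 0.501% to 0.833%.

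At 90 days none of the 4 genes was called, in untreated mice, in OKN-007 mice or with the treatments averaged. The table as a whole gave few calls at this time: 0% of 18899 genes were called in either single comparison by edgeR's quasi-likelihood test and 0.0265% with treatments averaged. At an unadjusted p under 0.05 there were 1126 genes in untreated and 747 in OKN-007 mice.

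Vim was the member that stood out most at 90 days. It was at 175, 165, 271 and 183 CPM in untreated WT mice and at 297, 461, 435 and 167 CPM in untreated G93A mice. In OKN-007 mice it was at 209, 166, 188 and 193 CPM in WT and 287, 293, 411 and 350 CPM in G93A. All OKN-007 G93A mice were above all OKN-007 WT mice, which held for 1.81% of genes, whereas among the untreated mice G93A mouse 12 lay at the lower end of the WT mice. The averaged log2 fold change was 0.82 (SE 0.17, unadjusted p = 1.23e-04, adjusted p = 0.109), rank 20 of all genes by p. This value sat near the threshold and crossed it in several settings. It passed without G93A untreated mouse 12 (0.93, adjusted p = 0.0028), with all 32 mice in one fit (0.81, adjusted p = 0.0439), with the likelihood ratio test (0.82, adjusted p = 0.0017), with DESeq2 (0.81, adjusted p = 0.0102) and with no filter on low counts (0.80, adjusted p = 3.13e-06). The share of all genes called in each of these settings was not recorded, so these passes cannot be set beside it. With the caudal Hox score in the model the value did not pass (0.81, adjusted p = 0.108). Without WT untreated mouse 3, the library rich in Schwann cell markers, it was 0.91 with an adjusted p = 0.106. That mouse had the highest Vim and the highest Nes of the 8 WT mice at 90 days, and the part of its other cells in those values was not tested. G93A untreated mouse 10, next highest in Schwann cell and fibroblast markers (373 and 79.8 CPM), had the highest Vim of all mice at 90 days (461 CPM). The part of such cells in its Vim was not tested either.

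Nes at 90 days was at 50.6, 70.9, 95.1 and 47.8 CPM in untreated WT mice and at 87.5, 59.2, 68.6 and 86.1 CPM in untreated G93A mice. In OKN-007 mice it was at 61.1, 49.4, 45.5 and 47.9 CPM in WT and 79.2, 79.7, 80.4 and 79.7 CPM in G93A. The untreated groups overlapped and the OKN-007 groups did not, with every G93A mouse above every WT mouse, as for 1.81% of genes. With only the 8 OKN-007 mice in the fit, Vim and Nes were both called, at 0.82 and 0.64 with an adjusted p = 0.0430 each, in place of 0.82 and 0.64 with an adjusted p = 0.9996 each. The fit of all mice of this time called 0% of genes, and the share called in the fit of 8 mice was not recorded. The averaged log2 fold change of Nes was 0.43 (SE 0.12, adjusted p = 0.332), 0.42 (adjusted p = 0.0106) with no filter on low counts, and 0.54 (adjusted p = 0.0706) without WT untreated mouse 3.

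Gfap at 90 days was at 3299, 3630, 4202 and 3687 CPM in untreated WT mice and 4472, 4522, 5329 and 3334 CPM in untreated G93A mice. In OKN-007 mice it was at 5020, 3458, 3515 and 4456 CPM in WT and 5011, 4853, 5523 and 5084 CPM in G93A. The genotypes overlapped in both treatments, with an averaged log2 fold change of 0.30 (SE 0.10, adjusted p = 0.492), and 0.33 (adjusted p = 0.5003) without WT untreated mouse 3. Synm ranged from 111 to 200 CPM in the 8 WT mice and 82.4 to 166 CPM in the 8 G93A mice, with an averaged log2 fold change of -0.08 (SE 0.12, adjusted p = 0.954), and -0.11 (adjusted p = 0.981) without that mouse.

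Tested directly across all 32 mice, the G93A change was larger at 155 than at 90 days for 3 of the 4 genes in each treatment. In untreated mice the difference of log2 fold changes was 3.05 for Vim (SE 0.35, adjusted p = 1.07e-07), 2.11 for Gfap (SE 0.18, adjusted p = 1.01e-09) and 1.64 for Nes (SE 0.32, adjusted p = 2.85e-04). For Synm it was 0.04 (SE 0.23, adjusted p = 0.934). Without WT untreated mouse 3 at 90 days the values were 2.87, 2.04, 1.42 and 0.10, with the same 3 genes called. Over all genes, 12.9% of 19829 had a change that was larger in the positive direction at 155 days. In OKN-007 mice the differences were 3.11 for Vim (adjusted p = 6.14e-08), 2.31 for Gfap (adjusted p = 1.99e-10), 0.94 for Nes (adjusted p = 0.0291) and -0.24 for Synm (adjusted p = 0.514), beside 13% of genes. The Nes value of the OKN-007 mice was not past the threshold once the caudal Hox score entered the model (0.85, adjusted p = 0.0740). It also missed it when WT OKN-007 mouse 5 at 90 days, WT OKN-007 mouse 6 or 7 or G93A OKN-007 mouse 13 at 155 days was left out, with adjusted p between 0.0582 and 0.0739.

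The WT mice differed between the times as well. Every untreated WT mouse at 155 days was below every one at 90 days for Gfap (log2 fold change -0.74, SE 0.13, adjusted p = 2.73e-04), where 18.7% of genes had no overlap between the times and 9.61% were called lower. Vim was lower as well (-0.69, SE 0.24, adjusted p = 0.0350), but without WT untreated mouse 3 at 90 days the value was -0.50 with an adjusted p = 0.164. It also missed the threshold without WT untreated mouse 1 at 155 days (adjusted p = 0.0789) or mouse 3 at 155 days (adjusted p = 0.108). Gfap was at -0.67 (adjusted p = 0.0021), Nes at -0.03 and Synm at 0.07 without WT untreated mouse 3 at 90 days. Nes (-0.26, adjusted p = 0.419) and Synm (0.12, adjusted p = 0.627) were not called, although Nes passed without WT untreated mouse 4 at 155 days (-0.63, adjusted p = 0.0236). In untreated G93A mice, Vim (2.36, SE 0.25, adjusted p = 8.93e-09), Nes (1.38, SE 0.23, adjusted p = 1.41e-05) and Gfap (1.37, SE 0.13, adjusted p = 6.07e-10) were higher at 155 than at 90 days, where 21% of genes were called higher, and Synm was not called (0.16, adjusted p = 0.484). Age and any batch of collection cannot be told apart in comparisons between the times. The caudal Hox score was 0.806 to 2.62 in WT mice at 90 days against 2.01 to 3.14 at 155 days. With that score in the model the same genes were called: Gfap (-0.73, adjusted p = 3.50e-04) and Vim (-0.75, adjusted p = 0.0296) in WT mice, and Gfap (1.35), Vim (2.42) and Nes (1.33) in G93A mice.

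The groups were ordered by their means for each gene, as a description. Neighbours in such an order are the groups closest in mean, so overlap between their mice is likely from the start. For Gfap, both WT groups at 155 days came lowest (1979 ± 155 CPM with OKN-007 and 2196 ± 217 CPM untreated, SD, n = 4). The 4 groups of 90 days followed, from 3704 ± 373 CPM in untreated WT to 5118 ± 287 CPM in G93A OKN-007 mice, and both G93A groups of 155 days came last (11262 ± 1857 CPM untreated and 11813 ± 972 CPM with OKN-007). Neighbours within each of these 3 tiers overlapped. Vim had the same outer tiers, at 122 ± 17.3 CPM (untreated WT) and 122 ± 5.07 CPM (WT OKN-007) and at 1732 ± 790 CPM (untreated G93A) and 1806 ± 322 CPM (G93A OKN-007). At 90 days its WT groups (189 ± 17.8 CPM with OKN-007 and 199 ± 49.0 CPM untreated) had lower means than its G93A groups (335 ± 57.7 CPM with OKN-007 and 340 ± 136 CPM untreated). Without mouse 3 the untreated WT group at 90 days had means of 3538 ± 210 CPM for Gfap, 174 ± 8.88 CPM for Vim, 56.5 ± 12.6 CPM for Nes and 152 ± 44.9 CPM for Synm (SD, n = 3), and its mean of Vim was then below that of WT OKN-007 mice. For Nes, only the step from 79.8 ± 0.468 CPM in G93A OKN-007 mice at 90 days to 193 ± 24.4 CPM in the same kind of mice at 155 days was free of overlap. For Synm, no neighbouring groups were apart, over means between 127 ± 6.34 CPM and 158 ± 9.50 CPM. In all, 6 of 28 steps between neighbours were free of overlap, and the same count was not taken for other genes.

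The comparison of OKN-007 with untreated mice asks whether the compound changed the filament transcripts. In neither genotype and at neither time was any of the 4 genes called, beside 0% of all genes in each of these comparisons. In G93A mice at 155 days the log2 difference was 0.08 for Gfap (95% interval -0.14 to 0.30), 0.07 for Vim (-0.37 to 0.52), 0.00 for Nes (-0.48 to 0.49) and -0.20 for Synm (-0.48 to 0.08). At an unadjusted p under 0.05 edgeR's test gave 755 genes in that comparison (4.04%) and none of these 4. In G93A mice at 90 days the values were 0.19 for Gfap (-0.09 to 0.48), -0.05 for Vim (-0.54 to 0.45), 0.07 for Nes (-0.28 to 0.41) and 0.12 for Synm (-0.23 to 0.47). In WT mice at 155 days Gfap was at -0.17 (-0.39 to 0.05), Vim at -0.02 (-0.47 to 0.43), Nes at 0.25 (-0.25 to 0.75) and Synm at -0.02 (-0.30 to 0.26). In WT mice at 90 days Gfap was at 0.16 (-0.13 to 0.45), Vim at -0.06 (-0.56 to 0.43) and Synm at 0.04 (-0.30 to 0.39). Without WT untreated mouse 3 these were 0.23, 0.12 and -0.02, none called. Nes was the 1 member with an unadjusted p under 0.05, at -0.37 (-0.71 to -0.02, unadjusted p = 0.0402, beside 4.07% of genes, adjusted p = 0.993), and at -0.14 without WT untreated mouse 3. The groups overlapped in each of these comparisons. No DESeq2 value of a member was called either. The genotype by treatment interaction was called for none of them at either time, and the largest value was 0.44 for Nes at 90 days (SE 0.23, adjusted p = 0.9999), beside 0% of genes. It was 0.21 without WT untreated mouse 3.

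Other members of the intermediate filament family were set beside the 4 genes, and so were proteins that bind, modify or regulate filaments. In untreated mice at 155 days the median log2 fold change of all genes tested was 0.00. Of 14 other intermediate filament genes 13 were tested (Krt19 was too low): 4 rose, 5 fell and 4 were not called, with a median of 0.08. The genes of neuronal filaments fell, among them Nefh (-1.23, from 2779 ± 395 to 1141 ± 221 CPM), Nefl (-1.10) and Nefm (-1.05), whose proteins build the neurofilaments of axons. Krt8, a keratin of simple epithelia, rose (2.20) at very low levels, from 0.136 to 0.609 CPM. In untreated mice 21.3% of all genes were called higher and 18.2% lower. In the OKN-007 mice 5 rose and 5 fell, beside 23.3% of all genes called higher and 18.2% called lower.

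Of 14 linkers and partners of filaments, 6 rose, 3 fell and 5 were not called, with a median of 0.18, beside the 21.3% of all genes that were called higher and the 18.2% called lower. Ppl, the plakin periplakin, rose by 4.38 from 0.866 ± 0.212 to 17.7 ± 9.58 CPM, more than Vim itself. Hspb1, a small heat shock protein that binds filaments, rose by 3.99 from 12.5 ± 2.56 to 194 ± 170 CPM. Tln1, which couples integrins to the cytoskeleton, rose by 0.85 and Cryab, the small heat shock protein found with Gfap in Rosenthal fibres, by 0.76. Plec, the main linker of Vim and Gfap filaments, fell (-0.31, SE 0.12, adjusted p = 0.0425).

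Among 13 enzymes that phosphorylate, citrullinate or cut filament proteins, 8 rose, 3 fell and 2 were not called, with a median of 0.35. Over all genes, 21.3% were called higher and 18.2% lower. Aurkb, a mitotic kinase that phosphorylates Vim and Gfap, had the largest change (2.90, at 0.640 CPM in G93A mice). Casp6 (0.80) and the calpain Capn2 (0.73), proteases that cut filament proteins, rose as well, and Padi2, which citrullinates Gfap, rose by 0.66. With the caudal Hox score in the model, 6 of the 13 were called in either direction in place of 11. The share of all genes called in that model was not recorded, so this drop cannot be set beside it.

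Of 12 transcription factors known at the Gfap or Nes genes, 6 rose, 0 fell and 6 were not called, with a median of 0.29. Over all genes, 21.3% were called higher and 39.5% in either direction. Sox9, an astrocyte factor, rose by 1.47 (SE 0.15), Fos by 1.38 (SE 0.21), Stat3 by 0.92 (SE 0.08) and Jun by 0.91 (SE 0.13). The other factors that rose were Sox2 (0.78) and Nfib (0.29). Their fold changes were smaller than those of Gfap, Vim and Nes. At 90 days, with treatments averaged, 0 genes of any of these lists were called.

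Markers of the cells that could carry these transcripts moved by different amounts. Beside the counts below, 21.3% of all genes were called higher and 39.5% in either direction. Of 12 astrocyte markers 6 rose, 0 fell and 6 were not called, with a median of 0.24: the water channel gene Aqp4 rose by 1.28, the folate enzyme gene Aldh1l1 by 0.94, Atp1b2 by 0.65 and the gap junction gene Gja1 by 0.44. Their summed level was 7511 to 7931 CPM in untreated WT and 8584 to 10885 CPM in untreated G93A mice. The fold change of Gfap was larger than that of any of the 12. Every astrocyte marker was detected in every mouse, as was every microglia, endothelial, mural, ependymal and neuron marker, so detection does not set astrocytes apart from these cells.

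All 8 microglia markers rose, with a median of 2.18 (C1qa 3.55, Aif1 2.70 and Itgam 2.27), beside 21.3% of all genes called higher. Their summed level was 303 to 384 CPM in the 8 WT mice at 155 days and 1346 to 2410 CPM in the 8 G93A mice. All 6 proliferation markers rose too, with a median of 2.76 (Mki67 3.54, Top2a 3.32), from a sum of 4.51 to 5.83 CPM to a sum of 26.2 to 45.8 CPM. Microglia are among the cells that make Vim, and dividing cells among those that make Nes and Vim. The part of these cells in the rise of Vim and Nes was not tested.

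Markers of the other cell types moved in both directions. In untreated mice 21.3% of all genes were called higher and 18.2% lower. Of 8 endothelial markers 0 were called in untreated mice, with a median of -0.20 and a summed level of 220 to 277 CPM in untreated WT and 209 to 256 CPM in untreated G93A mice. In the OKN-007 mice 3 of the 8 fell, with a median of -0.31, beside 18.2% of all genes called lower. Of 8 mural cell markers 4 rose and 1 fell (Tagln 2.23, Notch3 0.75, Kcnj8 0.61, Pdgfrb 0.51), and their sum was 209 to 243 CPM in WT and 210 to 264 CPM in G93A mice. Of 8 ependymal markers 3 rose (Rarres2 1.62, Cfap126 0.51, Foxj1 0.38) and 5 were not called, among them Tmem212 at -0.87, Hydin at -0.62 and Ccdc153 at -0.57, with a median of 0.04 and sums of 66.3 to 84.5 and 78.4 to 112 CPM. Of 5 fibroblast and meningeal markers tested 2 rose (Col1a1 0.67, Col1a2 0.38) and 3 were not called (Lum -0.71, Col3a1 -0.70, Dcn -0.20), with a median of -0.20. Of 6 Schwann cell markers tested only Egr2 rose (4.48), which other cells also make. None of 3 muscle markers tested was called. Of 7 neuron markers 6 fell, among them Mnx1 of motor neurons (-1.29), Slc5a7 (-0.74), Snap25 (-0.66) and Rbfox3 (-0.55), with a median of -0.55, beside 18.2% of all genes called lower. Their sum was 2188 to 2734 CPM in the 8 WT mice at 155 days and 1115 to 1864 CPM in the 8 G93A mice. Of 8 caudal Hox genes tested 4 were lower in G93A mice. With the caudal Hox score in the model, 2 of the mural cell markers and 1 of the ependymal markers were called in place of 5 and 3. The share of all genes called in that model was not recorded, so these drops cannot be read as particular to these markers. The mouse's own Sod1 gene was not called (-0.10, SE 0.10, adjusted p = 0.458).

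**Figure D4:**
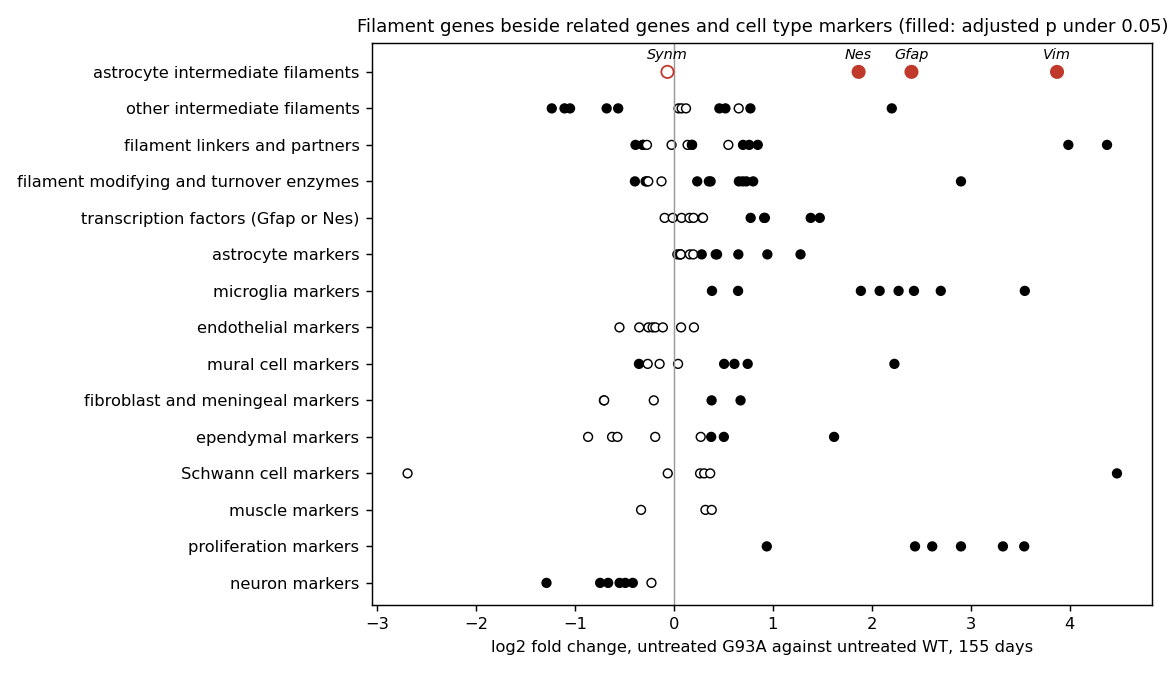
Log2 fold change of untreated G93A against untreated WT mice at 155 days for the 4 filament genes in red and for related genes and cell type markers in black, 1 row per list. Filled points passed an adjusted p of 0.05. Vim, at 3.87, lies beyond every microglia marker and below the linkers Ppl and Hspb1 and Egr2 of the Schwann cell list. The endothelial markers lie on both sides of 0 with a median of -0.20, none of them called.

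The genes whose levels over the 32 mice were most like each member were sought among 19829 genes by Pearson's correlation of log2 CPM, given as a description since the mice share groups and each pair of genes shares its library. For Gfap these were Cd44, C3, C4b, Flnc and Cd9 (r from 0.98 to 0.99). For Vim they were Cd63, Fcgr3, A2m, S100a6 and Capg (0.99 in each). For Nes they were Msn, Baz1a, Fkbp9, Skap2 and Oat (0.92 to 0.93), and for Synm, Sgms1, Clmn, Arhgap21, Ppp1r16b and Plcl1 (0.73 to 0.77). Gfap and Vim correlated at 0.97 with each other, Vim and Nes at 0.90 and Gfap and Nes at 0.83, and Synm at -0.32 to -0.11 with the rest. Without WT untreated mouse 3 at 90 days these were 0.97, 0.90, 0.84 and -0.32 to -0.11.

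With the mean of each group taken out, so that only differences between mice of a group remained, Gfap and Vim still correlated at 0.80, whereas Nes was at 0.22 with Gfap and 0.23 with Vim. Nes was closer to Synm on this measure, at 0.35. Without WT untreated mouse 3 at 90 days these values were 0.79, 0.14, 0.13 and 0.45. The genes most like Gfap within groups were A2m, Laptm5, Csf1r, Pld4 and Aif1 (0.82 to 0.86), and those most like Vim were S100a6, Grn, Ctsz, Tmem176b and Cd63 (0.87 to 0.89). Csf1r and Aif1 are microglia markers. For Nes they were Pot1b, Smtn, Rai14, Helz2 and Atf1 (0.67 to 0.73), and for Synm, Aldh6a1, Nek7, Tspan2, Plcl1 and Kank1 (0.84 to 0.88). Among the 4 untreated G93A mice at 155 days, mice 10 and 11 were highest for Gfap, Vim and Nes. Their microglia marker sums of 2172 and 2410 CPM were the highest too, beside 1517 CPM in mouse 9 and 1346 CPM in mouse 12. So were their astrocyte marker sums, at 9717 and 10885 CPM beside 8584 and 8809 CPM. Their neuron marker sums were the lowest, at 1372 and 1253 CPM beside 1538 and 1864 CPM. Among the G93A OKN-007 mice at 155 days, mouse 16 had the lowest microglia sum (1643 CPM), Gfap and Vim. Its Nes of 200 CPM was above that of mice 14 and 15. The untreated G93A mice at 90 days are other animals that carry the same numbers. There, mice 10 and 11 had the highest Gfap, Vim and microglia sums (559 and 575 CPM, beside 420 and 377 CPM in mice 9 and 12), but the lowest Nes. Their astrocyte marker sums were 7561 and 8126 CPM, beside 7599 and 8300 CPM, and their neuron marker sums were the lowest (1595 and 1852 CPM, beside 1922 and 2385 CPM).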

How the data were processed

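Spinal cord RNA of 32 mice (8 groups of 4) was prepared with a stranded mRNA kit and sequenced. Per the study's methods, reads were trimmed (Trimmomatic) and aligned (STAR). The authors deposited raw counts per gene, not normalized. The study's methods name GRCm38, HTSeq and a GENCODE release, while the submitters' processing notes name featureCounts and GRCm39. The table holds IDs numbered above those of GENCODE M21, which is later than the release named, so no gene coordinates are given, and the promoter windows are placed on GRCm38.p6 in RefSeq's own annotation. Of 42524 IDs, 41203 (96.9%) were paired with a symbol through GENCODE M21, which also gave the exon lengths of the 4 genes. Every column belonged to 1 mouse, and no libraries within a group were identical (smallest chi-square per gene 3.80).

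Counts were analysed in R 4.3.3 with edgeR 4.0.16 (filterByExpr, TMM, glmQLFit, glmQLFTest), the 16 mice of a time as 4 groups, and all 32 mice as 8 groups for comparisons between times. SEs were taken from the F statistic. CPM used TMM factors over all mice. Alternatives were DESeq2 1.42.0, the likelihood ratio test, RLE factors, no filter, a minimum of 10 counts in each mouse, only the groups compared, all 32 mice, the caudal Hox score as a covariate, an adjusted p under 0.10, an absolute log2 fold change of at least 1, the sample number as a replicate block, and leaving out each mouse. The fit was tested on simulated data.

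The 4 genes and the 15 gene lists (137 genes) were chosen with earlier results of these data known. The text names the 4 genes in every comparison, up to 4 called genes of each list with the largest absolute fold change at 155 days in untreated mice, and the 5 most like genes of each member. Plec, Padi2, Sox2, Nfib and the uncalled ependymal and fibroblast markers, outside that rule, were named after their values were seen. Single-gene values of some list members are not reported here. Group means and correlations without WT untreated mouse 3 at 90 days were added after seeing the data.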

Additional observations from a re-analysis of the deposited data

Results flagged for a closer look

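Among the 32 groups of 4 mice formed by the 4 genes, 2 held a mouse far from the others, where chance gives about 1.6. WT untreated mouse 3 at 90 days had a Vim level of 271 CPM, and the next mouse of its group 183 CPM. It is the mouse whose Schwann cell markers summed to 1373 CPM. G93A untreated mouse 11 at 155 days had a Synm level of 202 CPM, and the next mouse 129 CPM. Without it, the G93A change of Synm with treatments averaged at 155 days was -0.25 with an adjusted p = 0.0059 by edgeR's quasi-likelihood test, in place of -0.16 with an adjusted p = 0.175. With all mice kept and the caudal Hox score in the model, it was 0.01 with an adjusted p = 0.972 by the same test. With all mice, 54.7% of the 18675 genes tested were called in this averaged comparison, and 25.8% were called lower.

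The G93A change differed between 155 and 90 days for 3 genes in each treatment by edgeR's test of the difference itself. On the log2 scale it was larger at 155 days by 3.05 for Vim, 2.11 for Gfap and 1.64 for Nes in untreated mice, and by 3.11 for Vim, 2.31 for Gfap and 0.94 for Nes in OKN-007 mice.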

How the results depend on the processing

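Of 1328 values of the 4 genes under the alternatives, 1303 kept their call, and no called value turned its direction. The 1303 include 67 values that changed sign but were not called either way. At 155 days the number of the 4 genes called in G93A against WT was 3 in every setting for untreated mice. At 90 days the count with treatments averaged was 0, and became 1 with the likelihood ratio test, 1 with all 32 mice in one fit, 1 with DESeq2 and 2 with no filter on low counts, and lay between 0 and 1 on leaving out each mouse. For untreated mice it became 1 with no filter, and for OKN-007 mice 2 with no filter and 2 with only the groups compared. The share of all genes called under each of these settings was not recorded. The counts therefore cannot tell a change in these 4 genes from a change in the number of calls as a whole. The cause was not tested. For WT mice at 155 against 90 days the count was 2, became 0 at a minimum absolute log2 fold change of 1, since both changes are smaller, and lay between 1 and 3 on leaving out each mouse. Among the lists, the caudal Hox count of 4 was 0 with at least 10 counts in every mouse, 7 with no filter, and between 1 and 8 on leaving out each mouse, and the fibroblast count of 2 was 0 with all 32 mice in one fit.

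Sample numbers recur between the times only, and they do not pair the mice: over 16 pairs the correlation of deviations from the group means ran from -0.215 to 0.133, and 3 of the pairs correlated best with their own number. With the number as a replicate block, 3 of the 4 genes were called in the difference of the G93A change between times in untreated and in OKN-007 mice, 2 in WT and 3 in G93A mice between times, as without it. With 4 mice a group, changes under the intervals given could not be shown.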
